A study of Mus musculus with 60 samples.

Results

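The 10 genes examined in mouse dentate gyrus (DG) encode feedback inhibitors of MAP kinase signaling. They were a named set of 10 among 46480 genes in the count tables, and comprised 5 genes for dual-specificity phosphatases (*Dusp1*, *Dusp4*, *Dusp5*, *Dusp6* and *Dusp14*), 3 Sprouty genes (*Spry1*, *Spry2* and *Spry4*) and 2 Spred genes (*Spred1* and *Spred2*). No measured value was part of the rule that chose them, but they were chosen with earlier results of these data known. All 10 had more than 10 counts in at least 2 samples, and so were among the 17040 genes tested.

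The MAP kinase ERK is activated when growth factors bind receptor tyrosine kinases, or when calcium enters an active neuron, through Ras, Raf and MEK. Active ERK induces transcription factors such as *Fos* and *Egr1*, and also the genes of its own inhibitors. The Dusp proteins remove phosphate from MAP kinases, the Sprouty proteins act between receptor and Ras, and the Spred proteins act on Ras and Raf together with neurofibromin. In the hippocampus this pathway is known for its part in synaptic plasticity and memory.

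The study compared the dorsal and ventral DG, the poles of the region linked respectively to spatial cognition and to emotion and stress, in mice kept in standard housing (SH) or an enriched environment (EE). The mice were C57BL6J males, weaned on day 22, kept in SH with 3 males per cage or in EE with 12 males in a larger cage with running wheels and objects that were changed weekly, and collected after 8 weeks at 80 days of age. Tissue was punched from frozen slices (coronal for dorsal DG, horizontal for ventral DG), and each sample pooled several mice, with the dorsal and ventral samples of one number and housing from the same mice. The groups were dorsal SH (n = 4), dorsal EE (n = 5), ventral SH (n = 4) and ventral EE (n = 5).

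SH replicate 3 was left out in both regions, because its libraries held at least 11.9 CPM (counts scaled to a fixed library total) of *Xist*, an RNA of female cells, against at most 0.652 CPM in every other library. The remaining 18 libraries had 22919364 to 28301861 fragments counted on genes (median 25816352.5). Markers of dentate granule cells (5 of 5 present in the count tables) summed to 841 to 1013 CPM in dorsal and 416 to 632 CPM in ventral samples. Markers of CA pyramidal and mossy cells (5 of 5) summed to 131 to 168 CPM in dorsal and 239 to 281 CPM in ventral samples. Markers of choroid plexus (5 of 5) summed to 22.0 to 206 CPM in dorsal and 387 to 1413 CPM in ventral samples, with the highest sum of the dorsal samples in dorsal SH 1 and the highest of the ventral samples in ventral EE 3 and ventral SH 5. The sums of the other 7 marker lists overlapped between dorsal and ventral samples, and no marker of any list was at 0 in all 18 libraries. Fewer cells of a type and less RNA per cell cannot be told apart in such tissue, and the p-values below measure the spread between these pools.

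The promoters of *Dusp1* and *Dusp5* are shown because these members rose in EE. That of *Dusp14* is shown because it was the member with separate housing groups in dorsal DG in CPM. Promoters were found for 8 of the 10 members among 32851 RefSeq promoters (GRCm38.p6), without *Dusp4* and *Spry4*. Each stretch is printed 5′ to 3′ in the sense of the gene, without bases annotated as exon on that strand. Capitals mark the motifs searched on both strands in the 250 bases before the RefSeq start, which were the full cAMP response element TGACGTCA, its short form TGACG (also counted within the full site), the AP-1 site TGANTCA, the ETS site CCGGAA and the CArG box of serum response factor. *Dusp1* lies at chr17:26508520-26508722 on the minus strand, from 250 to 48 bases before the start, *Dusp5* at chr19:53528895-53529108 on the plus strand, from 250 to 37 bases before it, and *Dusp14* at chr11:84068358-84068480 on the minus strand, from 123 bases before it to the start. The *Dusp1* and *Dusp14* stretches are within the longer Gencode spans of these genes.
Dusp1: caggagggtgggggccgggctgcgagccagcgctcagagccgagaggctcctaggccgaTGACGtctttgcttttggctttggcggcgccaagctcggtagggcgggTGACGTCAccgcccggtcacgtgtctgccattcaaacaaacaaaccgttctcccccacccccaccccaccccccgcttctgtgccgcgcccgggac
Dusp5: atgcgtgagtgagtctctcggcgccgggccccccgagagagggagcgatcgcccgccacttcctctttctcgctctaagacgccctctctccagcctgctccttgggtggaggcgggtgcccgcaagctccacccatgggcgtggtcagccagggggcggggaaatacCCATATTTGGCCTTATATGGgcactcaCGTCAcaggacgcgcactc
Dusp14: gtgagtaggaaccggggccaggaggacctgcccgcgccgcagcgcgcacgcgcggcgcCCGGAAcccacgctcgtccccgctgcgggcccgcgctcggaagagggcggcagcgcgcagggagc

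*Dusp1* held the full cAMP response element 143 to 136 bases before the start, a motif present in 1.55% of all promoters, and a further short form from 191 to 187 bases. *Dusp5* held 2 CArG boxes side by side, at 82 to 73 and 72 to 63 bases before the start, and a short cAMP response element at 55 to 51 bases. A CArG box was present in 1.47% of all promoters. The short form was found in 3 of 8 members (*Dusp1*, *Dusp5* and *Spred2*) and in 17.8% of all promoters. An ETS site was found in *Dusp14* alone among the 8 and in 12.0% of all promoters, and an AP-1 site in 0 of 8 and in 6.75% of all. These matches describe the letters of the windows and were not tested for binding.

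Spans and overlaps are from a later Gencode release than the study used, on GRCm38, which has the coordinates of mm10. The identifiers are those of the count tables, so the gene models counted may differ from these spans. *Dusp1* (ENSMUSG00000024190.6) spans chr17:26505590-26562128 and overlaps *Ergic1* and a pseudogene on the opposite strand. A processed pseudogene (AC122252.4) and a sense intronic RNA (AC122252.1) overlap it on the same strand, and reads shared with these cannot be told apart from its own by strand. Whether they also overlap the *Dusp1* model that was counted was not examined. *Dusp5* (ENSMUSG00000034765.6) spans chr19:53529109-53542431 and overlaps an antisense gene, AC137853.2. *Dusp4* (ENSMUSG00000031530.6) is at chr8:34807297-34819894, *Dusp6* (ENSMUSG00000019960.7) at chr10:99263231-99267489 and *Dusp14* (ENSMUSG00000018648.14) at chr11:84048041-84069261, each without an overlapping gene. *Spry1* (ENSMUSG00000037211.11) at chr3:37639947-37644598 and *Spry4* (ENSMUSG00000024427.6) at chr18:38586247-38601415 overlap small genes on the opposite strand. *Spry2* (ENSMUSG00000022114.4) at chr14:105891947-105896819, *Spred1* (ENSMUSG00000027351.13) at chr2:117121374-117182279 and *Spred2* (ENSMUSG00000045671.16) at chr11:19924375-20024026 overlap none. Counts were taken on the strand of the gene, so reads of opposite-strand partners were not counted with them.

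Per length, *Spred1* had the highest level of the 10 in these tissues, with 39.4 ± 2.78 CPM per kilobase (SD, n = 18). The next levels on this scale were *Dusp14* at 21.9 ± 5.63, *Spry2* at 20.2 ± 2.84, *Spred2* at 17.2 ± 1.69 and *Dusp6* at 16.5 ± 2.04 CPM per kilobase. *Dusp4* had 10.3 ± 3.87, *Spry1* 5.75 ± 1.25, *Dusp1* 4.12 ± 0.727, *Dusp5* 3.95 ± 0.950 and *Spry4* 2.27 ± 0.232 CPM per kilobase. The ranges of all neighbours in this order overlapped, and the means of *Dusp14* and *Spry2*, of *Spred2* and *Dusp6*, and of *Dusp1* and *Dusp5* differed by less than the larger of their SDs. *Dusp1*, itself an immediate early gene, and *Dusp5* were near the low end, with 142 to 256 and 121 to 348 counted fragments per library.

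**Figure D1:**
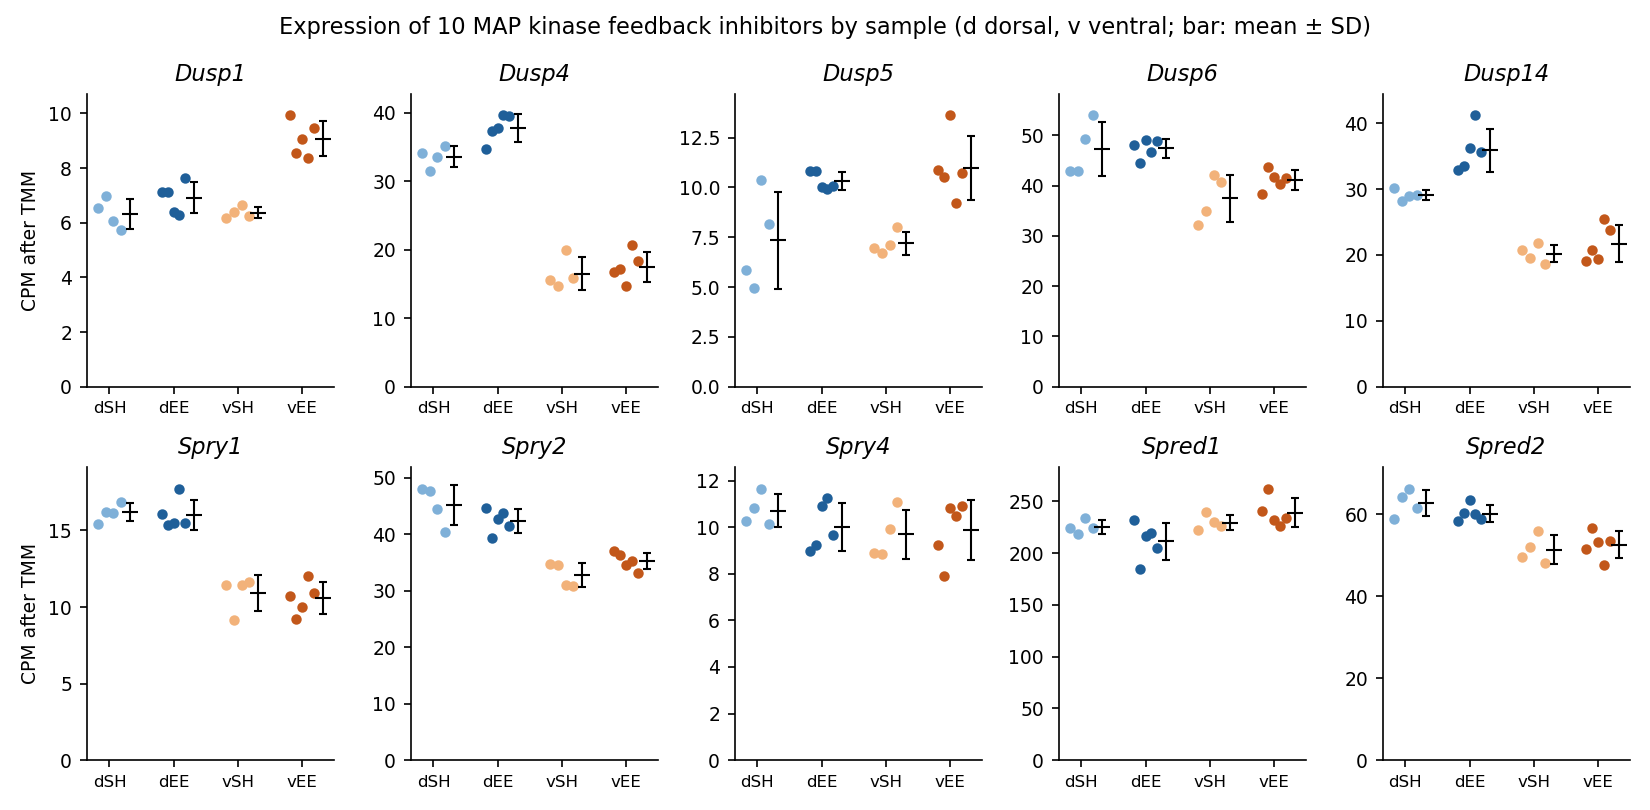
Expression of each of the 10 genes in the 18 samples, as CPM after TMM normalization on axes that start at 0. Points are samples of dorsal SH (dSH), dorsal EE (dEE), ventral SH (vSH) and ventral EE (vEE), and bars are the mean ± SD. *Dusp4* separates the regions, and *Dusp1* has its 5 highest values in ventral EE.

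The first question was how the regions differ. Of the 10 members, 5 (*Dusp4*, *Dusp14*, *Spry1*, *Spry2* and *Dusp6*) were higher in dorsal DG and 0 were lower, counting genes with an adjusted p (FDR) under 0.05 that differed by 20% or more. Over all genes tested, 15.9% were higher and 16.8% were lower by the same rule (32.7% in all). The median log2 difference of the 10 members was 0.26, against -0.0046 for all genes tested. The adjusted p-values of all comparisons are from the quasi-likelihood test of edgeR over all genes.

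*Dusp4*, a nuclear phosphatase of ERK and JNK, had the largest difference of the members. Its level was 34.1, 31.5, 33.6 and 35.1 CPM in dorsal SH (replicates 1, 2, 4 and 5) and 34.6, 37.3, 37.7, 39.6 and 39.4 CPM in dorsal EE (replicates 1 to 5). In ventral DG it was 15.5, 14.6, 20.01 and 15.8 CPM in SH and 16.8, 17.2, 14.6, 20.6 and 18.3 CPM in EE. Every dorsal sample was above every ventral sample, and the level was 2.03-fold higher in dorsal SH and 2.16-fold higher in dorsal EE. The log2 difference over both housings was 1.07 (SE 0.06, adjusted p = 8.18e-13).

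*Dusp14* encodes a small phosphatase that lacks the MAP kinase binding domain of the other members. In dorsal DG it had 30.1, 28.2, 28.9 and 29.1 CPM in SH and 32.9, 33.5, 36.2, 41.2 and 35.7 CPM in EE. In ventral DG it had 20.7, 19.6, 21.7 and 18.7 CPM in SH and 19.1, 20.8, 19.4, 25.5 and 23.7 CPM in EE. The regions did not overlap in either housing, and the log2 difference was 0.63 (SE 0.06, adjusted p = 2.33e-09). *Dusp6*, the cytoplasmic phosphatase specific to ERK, differed less. It had 42.9, 42.9, 49.3 and 54.0 CPM in dorsal SH and 48.0, 44.5, 49.1, 46.8 and 48.9 CPM in dorsal EE, against 32.1, 35.0, 42.0 and 40.8 CPM in ventral SH and 38.3, 43.8, 41.7, 40.3 and 41.6 CPM in ventral EE. Its log2 difference of 0.27 (SE 0.05, adjusted p = 0.000127) was just past the limit of 20%, and the call was lost with unstranded counts (0.26) and without SH 1, SH 5 or EE 1 (0.26 in each).

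Both of the more abundant Sprouty genes were higher in dorsal DG. *Spry1* had 15.4, 16.2, 16.2 and 16.9 CPM in dorsal SH and 16.1, 15.4, 15.5, 17.7 and 15.5 CPM in dorsal EE, against 11.4, 9.12, 11.5 and 11.6 CPM in ventral SH and 10.7, 9.23, 9.99, 12.0 and 10.9 CPM in ventral EE. The lowest dorsal sample exceeded the highest ventral one, and the log2 difference was 0.58 (SE 0.05, adjusted p = 6.43e-09). *Spry2* had 48.0, 47.6, 44.4 and 40.4 CPM in dorsal SH and 44.6, 39.3, 42.7, 43.7 and 41.4 CPM in dorsal EE. Its ventral levels of 34.7, 34.5, 31.0 and 30.7 CPM in SH and 36.9, 36.3, 34.5, 35.2 and 33.2 CPM in EE were all lower, with a log2 difference of 0.36 (SE 0.04, adjusted p = 8.07e-08). *Spry4* ranged from 8.98 to 11.7 CPM in dorsal and 7.92 to 11.1 CPM in ventral samples, and the regions overlapped (log2 difference 0.08, SE 0.07, adjusted p = 0.329).

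The Spred genes passed the adjusted p but not the fold limit. *Spred2* had 58.2 to 66.2 CPM in dorsal and 47.7 to 56.6 CPM in ventral samples without overlap, but its log2 difference of 0.24 (SE 0.04, adjusted p = 8.88e-06) was under it. *Spred1* had 184 to 234 CPM in dorsal and 222 to 262 CPM in ventral samples, and was higher in ventral DG in 7 of 9 pools (-0.10, SE 0.04, adjusted p = 0.0326).

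*Dusp1* was also under the fold limit over both housings (log2 difference -0.20, SE 0.06, adjusted p = 0.0042), and its values differed between them. In SH it had 5.73 to 6.99 CPM in dorsal and 6.18 to 6.64 CPM in ventral DG, with a log2 difference of -0.01 (SE 0.09, adjusted p = 0.952). In EE it had 6.28 to 7.65 CPM in dorsal and 8.38 to 9.93 CPM in ventral DG without overlap, with a log2 difference of -0.39 (SE 0.07, adjusted p = 0.000146). The difference between these differences is the interaction tested below, which did not pass the adjusted threshold. *Dusp5* overlapped between the regions in both housings (log2 difference -0.03, SE 0.10, adjusted p = 0.791).

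Within SH alone, 6 members passed, the same 5 and *Spred2* (28.3% of all genes were called there, 14.1% higher and 14.2% lower). Within EE alone, *Dusp4*, *Dusp14*, *Spry1* and *Spry2* were called higher and *Dusp1* lower in dorsal DG (29.8% of all genes, 14.1% higher and 15.8% lower). *Dusp1* did not overlap in EE, as 14.3% of all genes did not in that direction. *Dusp4*, *Dusp6*, *Dusp14*, *Spry1*, *Spry2* and *Spred2* did not overlap between the regions in either housing, a separation in that direction that 19.5% of all genes had in SH and 14.5% in EE. They were higher in the dorsal sample in 9 of 9 pools. The summed granule cell markers moved in the same direction, at 841 to 1013 CPM in dorsal against 416 to 632 CPM in ventral samples, and the choroid plexus and CA markers in the opposite one. Their part in these differences was not tested.

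**Figure D2:**
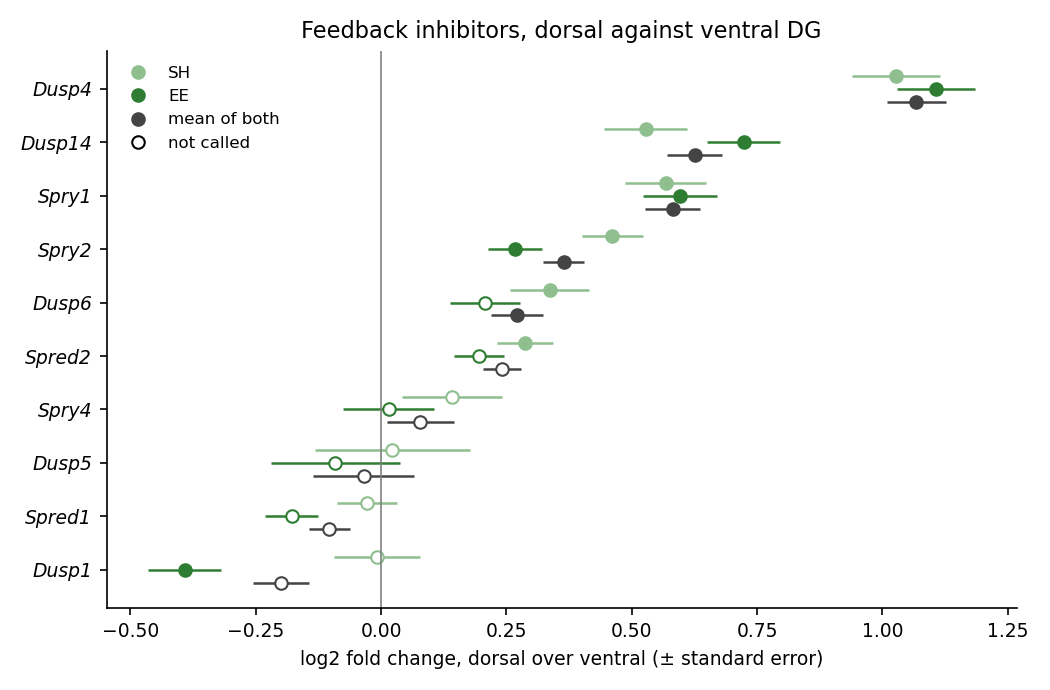
Log2 fold change of dorsal over ventral DG for the 10 genes in SH, in EE and as the mean of both, with the standard error. Filled points passed an FDR of 0.05 and a fold change of 20%. *Dusp4* is near 1 in both housings, and *Dusp1* lies at -0.01 in SH and -0.39 in EE.

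The second question was what EE changed within each region. In dorsal DG 0 of 10 members were called in the quasi-likelihood test of edgeR, where 0.634% of all genes were called (0.387% higher and 0.246% lower). In all, 3 members (*Dusp14*, *Dusp5* and *Dusp4*) had an unadjusted p under 0.05, as did 1502 of the 17040 genes. DESeq2 called 1 member. The median log2 change of the 10 members was -0.0044, against -0.0034 for all genes tested.

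In dorsal DG all 5 EE samples of *Dusp14* (32.9 to 41.2 CPM) lay above all 4 SH samples (28.2 to 30.1 CPM), a separation in that direction that 2.21% of all genes had. In the deposited TPM (scaled for length and library total) the groups overlapped, at 9.23 to 14.5 in SH and 10.45 to 14.32 in EE. The mean CPM of *Dusp14* was 1.23-fold higher in EE, but the log2 change of 0.30 (SE 0.08) had an adjusted p of 0.0679. With the replicate number as a block it was 0.29 with an adjusted p of 0.0185, and it also passed in DESeq2 (0.0221), the likelihood ratio test (0.0167), the fit to dorsal samples only (0.0251), all 20 samples (0.0272), no filter on low counts (0.0163) and without EE 1 (0.0481). Over the 22 fits made (the main one and its alternatives) the adjusted p of *Dusp14* was between 0.0163 and 0.203. The alternatives not named here did not pass. Over all genes the block raised the number called in dorsal DG from 108 to 173.

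*Dusp5*, a nuclear phosphatase specific to ERK, had 10.8, 10.8, 10.0, 9.90 and 10.1 CPM in dorsal EE and 5.84, 4.97, 10.4 and 8.19 CPM in dorsal SH. SH replicate 4 was within the range of the EE samples, and the other 3 SH samples were below it. The log2 change was 0.50 (SE 0.14, adjusted p = 0.142), and without SH replicate 4 it was 0.70 (adjusted p = 0.0166). With no filter on low counts it was 0.50 (adjusted p = 0.0204). Over the 22 fits the adjusted p of *Dusp5* was between 0.0166 and 0.486, and the other alternatives did not pass. *Dusp4* had a log2 change of 0.17 (SE 0.08, adjusted p = 0.551), with overlap of the groups. With the replicate block the dorsal change of *Dusp4* was 0.17 (adjusted p = 0.221). The other 7 members had log2 changes from -0.10 to 0.13 in dorsal DG and adjusted p-values of at least 0.695.

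In ventral DG *Dusp1* was the 1 member of 10 that was called higher in EE, where 0.241% of all genes were called (0.182% higher and 0.0587% lower). *Dusp1* is an immediate early gene that encodes a nuclear phosphatase of p38, JNK and ERK. It had 6.18, 6.38, 6.64 and 6.24 CPM in ventral SH and 9.93, 8.55, 9.05, 8.38 and 9.48 CPM in ventral EE. The groups did not overlap in CPM, and the mean CPM was 1.43-fold higher in EE. In TPM they overlapped, at 1.48 to 2.12 in SH and 1.38 to 2.52 in EE. The log2 change was 0.52 (SE 0.08, adjusted p = 0.00204), and the adjusted p was between 1.48e-06 and 0.0177 over the 22 fits made (this one and its alternatives). The part of choroid plexus RNA in this change was not tested. In dorsal DG the same gene had 6.52, 6.99, 6.06 and 5.73 CPM in SH and 7.14, 7.12, 6.38, 6.28 and 7.65 CPM in EE, with overlap and a log2 change of 0.13 (SE 0.08, adjusted p = 0.695).

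*Dusp5* also separated the ventral groups, with 6.95, 6.72, 7.09 and 8.03 CPM in SH and 10.9, 10.5, 13.6, 9.21 and 10.7 CPM in EE. Its mean CPM was 1.53-fold higher in EE, with overlap of the groups in TPM (1.17 to 1.61 in SH and 1.27 to 2.45 in EE). The log2 change of 0.61 (SE 0.14) had an adjusted p of 0.0864. The adjusted p was 0.00999 with DESeq2, 0.00787 with the likelihood ratio test, 0.00231 with no filter on low counts, 0.025 with all 20 samples and 0.0336 with ventral samples only. Over the 22 fits it was between 0.00231 and 0.288, and the alternatives not named here did not pass. *Dusp1* and *Dusp5* were the members with no overlap between the ventral groups in CPM, and 1.28% of all genes were separated in that direction.

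The highest *Dusp5* value, 13.6 CPM, was in ventral EE 3, the library with the largest sum of choroid plexus markers (1413 CPM). That sum overlapped between ventral SH (387 to 1100 CPM) and ventral EE (399 to 1413 CPM), and its part in the *Dusp5* value was not tested. The other 8 members had log2 changes from -0.04 to 0.14 in ventral DG and adjusted p-values of at least 0.723, with overlap between SH and EE. The median over the 10 members was 0.10, against -0.00016 for all genes tested. The replicate block raised the number of all genes called in ventral DG from 41 to 67.

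When the dorsal and ventral counts of each pool were summed, 2 members were higher in EE and 0 lower, against 0.473% and 0.159% of the 18182 genes tested (0.632% in all). *Dusp5* had a log2 change of 0.56 (SE 0.10, adjusted p = 0.0159) and *Dusp1* of 0.34 (SE 0.06, adjusted p = 0.0205). These calls are not independent of the tests in single regions, which used the same libraries. Both calls were lost without SH 1 (adjusted p of 0.0727 for *Dusp1* and 0.072 for *Dusp5*) and without EE 1 (0.0643 and 0.0501). That of *Dusp1* was also lost without SH 4 (0.0752), SH 5 (0.0804) or EE 5 (0.0505). *Dusp14* had a log2 change of 0.24 (SE 0.06, adjusted p = 0.116), and with the replicate block it was 0.25 (adjusted p = 0.0115), under the fold limit. *Dusp4* had 0.16 (SE 0.06, adjusted p = 0.319), and with the block 0.18 (adjusted p = 0.0241), also under the fold limit. The other 6 members had -0.03 to 0.07. The block raised the count over all genes from 115 to 218.

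**Figure D3:**
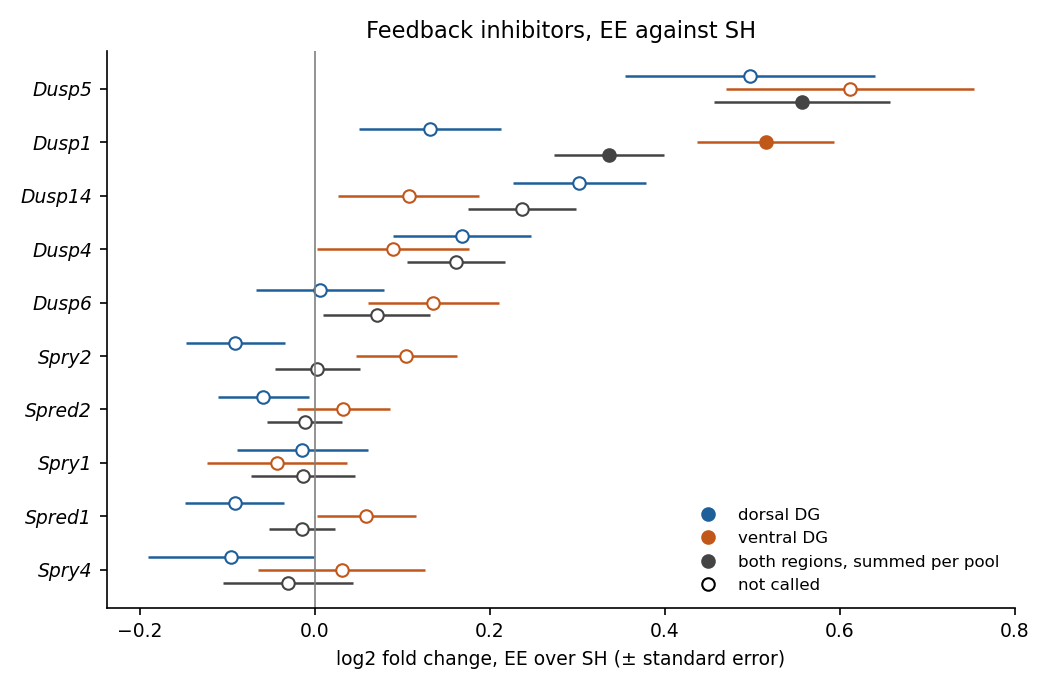
Log2 fold change of EE over SH for the 10 genes in dorsal DG, in ventral DG and in both regions summed per pool, with the standard error. Filled points passed an FDR of 0.05 and a fold change of 20%. *Dusp5* and *Dusp1* are at the top, and the 5 Spry and Spred genes lie between -0.10 and 0.10.

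The EE effect of no member was shown to differ between the regions. In the interaction test of edgeR, 0 of 10 members were called, as against 1 of the 17040 genes (0.00587%), and DESeq2 also called 0. Of the members, 2 had an unadjusted p under 0.05, as did 553 of all genes. The dorsal EE effect of *Dusp1* was below the ventral one, with a difference of -0.38 on the log2 scale (SE 0.11, unadjusted p = 0.00249, adjusted p = 1), and its adjusted p ranged from 0.909 to 1 over the 21 fits. *Spry2* had log2 changes of -0.09 in dorsal and 0.10 in ventral DG, a difference of -0.20 (SE 0.08, unadjusted p = 0.0239, adjusted p = 1). For *Dusp5* the difference was -0.11 (SE 0.20), and for *Dusp14* it was 0.20 (SE 0.11).

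Genes upstream and downstream of the 10 inhibitors were taken from 5 lists. None of the 14 tested receptor tyrosine kinase genes (of 16 listed), the 29 genes of the core from adaptors and Ras to ERK, the 13 genes of kinases and factors activated by ERK, or the 20 tested genes of other phosphatases and brakes (of 22 listed) was called in EE by edgeR in dorsal DG, ventral DG or both regions summed. Among the other brakes *Ptpn5*, a phosphatase of ERK in neurons, passed the adjusted p over both regions (log2 change 0.24, SE 0.04, adjusted p = 0.0119) and was under the fold limit. It is named here after its values were seen. In dorsal DG 1, 1, 2 and 3 genes of these lists had an unadjusted p under 0.05, in ventral DG 1, 3, 1 and 3 genes did, and over both regions 0, 3, 2 and 3 genes did. Of all genes, 1502 of 17040 did in dorsal DG, 1291 of 17040 in ventral DG and 1682 of 18182 over both regions. The median log2 changes of these lists were between -0.05 and 0.06 in the single regions.

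In the list of 20 targets of ERK and neuronal activity, 6 genes were higher in dorsal EE, 7 in ventral EE, 7 in both regions summed and 0 were lower. Over all genes tested, 0.387%, 0.182% and 0.473% were called higher in these comparisons. The list was chosen with earlier results of these data known. It holds *Fos*, *Fosb*, *Junb*, *Arc* and *Npas4*, which the study reported as raised by EE, so its counts and medians are not independent of that report. The list's median log2 change was 0.29 in dorsal and 0.32 in ventral DG. *Fos*, a subunit of the transcription factor AP-1, rose from 6.91 ± 1.46 to 11.7 ± 1.25 CPM in dorsal DG (log2 change 0.76, SE 0.12, adjusted p = 0.00168) and from 3.70 ± 0.652 to 8.90 ± 0.646 CPM in ventral DG (1.26, SE 0.13, adjusted p = 2.25e-05). *Npas4*, an activity-dependent transcription factor, rose by 1.27 (SE 0.12) in dorsal and 1.65 (SE 0.15) in ventral DG on the log2 scale. The other genes called in both regions were *Fosb* (0.67 and 1.05), *Arc* (0.41 and 0.53), *Fosl2* (0.38 and 0.43) and *Junb* (0.33 and 0.38). *Nr4a1* was called in ventral DG (0.61) and *Egr2* in both regions summed (1.13). *Dusp5*, with 0.50 and 0.61, had log2 changes within the range of these called targets, and those of the Spry and Spred genes were -0.10 to 0.10. The called targets are the larger rises of the list, whose 20 genes ranged from -0.30 to 1.27 in dorsal and from 0.0039 to 1.65 in ventral DG.

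**Figure D4:**
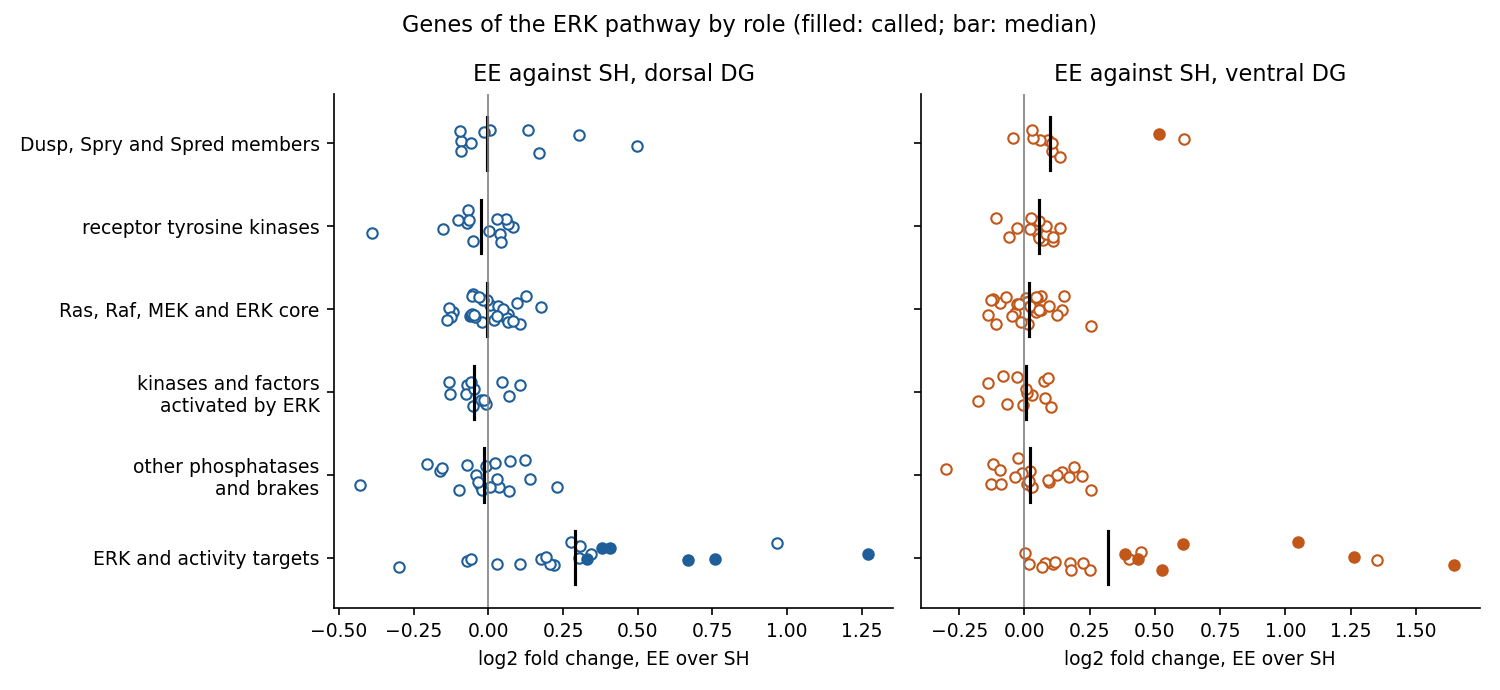
Log2 fold change of EE over SH in dorsal DG (left) and ventral DG (right) for the 10 inhibitors and the tested genes of 5 pathway lists, each point a gene and each bar a median. Filled points passed an FDR of 0.05 and a fold change of 20%. The called genes are *Dusp1* in ventral DG and 6 and 7 targets of ERK and activity.

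Between regions each of the same lists held genes called in both directions, whereas 5 members were higher and 0 lower. The difference between lists was not tested. Of the receptor tyrosine kinases 2 were higher in dorsal DG (*Ntrk3* 0.48 and *Erbb3* 0.38 on the log2 scale) and 5 lower, with *Kit* (-1.90) and *Met* (-1.44) the largest. Of the core genes, 5 were higher, led by the Ras activators *Rasgrp1* (0.87) and *Rasgrf2* (0.65), and 3 lower, led by *Gab2* (-0.46) and *Rasgrp2* (-0.40). Among other phosphatases and brakes 5 were higher, led by *Rasal2* (0.68) and *Dusp7* (0.47), and 6 lower, led by *Dusp9* (-0.97) and *Rasal1* (-0.92). The level of *Dusp9* was low, with group means of 0.20 to 0.49 CPM, and the SE of its difference was 0.26. Of the kinases and factors activated by ERK, *Mknk1* (0.45) and *Elk1* (0.45) were higher and *Rps6ka6* (-0.59) and *Rps6ka4* (-0.29) lower. Of the 20 targets 12 were higher, led by *Npas4* (1.11) and *Egr1* (0.98), and 5 lower, led by *Etv1* (-0.73) and *Ccnd1* (-0.69).

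Likeness of pattern was described by Pearson's r of log2 CPM over the 18 samples, as deviations from the mean of the region, among 12201 genes whose TPM exceeded 1 in 3 or more samples. These r values include the difference between SH and EE and share the pools of both regions. *Dusp4* and *Dusp14* were the most alike pair of members (r = 0.80), followed by *Spry2* and *Spred1* (0.56), *Dusp5* and *Dusp6* (0.54), *Dusp1* and *Dusp5* (0.54), and *Spry1* and *Spry4* (0.53). The gene most like *Dusp5* was *Fos* (r = 0.86), before *Oprd1* (0.86) and *Iglon5* (0.85). *Dusp1* was most like *Ostf1* (0.87), *Peli3* (0.78) and *Id1* (0.77), and *Dusp6* was most like *Stt3b* (0.83), *Egr1* (0.78) and *Nfya* (0.77). For *Dusp4* the closest were *Grm2*, *Sesn1* and *Robo3* (0.86 to 0.88), and for *Dusp14* they were *Plekha2*, *Mylk3* and *Kcnk1* (0.90 each). *Spry1* was closest to *Rrnad1*, *Mir124a-1hg* and *Fam216a* (0.80 to 0.84), *Spry2* to *Znrf2*, *Plekho2* and *Cpne3* (0.80 to 0.81) and *Spry4* to *Eps8l2*, *Pcdhga4* and *BC037034* (0.83 to 0.86). *Spred1* was closest to a gene without a symbol, *Snx13* and *Chpt1* (0.84 to 0.88), and *Spred2* to *Zfp768*, *Btbd7* and *Ybx3* (0.75 to 0.78).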

How the data were processed

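RNA-Seq samples of 4 groups were used, mapped by their labels, and those of MethylC-Seq and TAB-Seq were not used here. The submitters' processing notes name Trim Galore 0.4.0, STAR 2.5.1b, RSEM 1.2.30 and mm10. Counts of fragments per gene, not normalized, were deposited by the authors for each sample, and the column for the strand that this kit keeps was used. The authors deposited an expected count per gene too, made by sharing out fragments that fit several transcripts, and it was rounded to whole numbers for an alternative. TPM, scaled for length and library total, was deposited by the authors and used for the filter on likeness. The effective length of each gene, deposited by the authors, is taken as a score and was used to give CPM per kilobase.

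Tests covered genes whose counts exceeded 10 in 2 or more samples, with TMM normalization and the quasi-likelihood test of edgeR 4.0.16 (R 4.3.3) fitted over the 4 groups together, with Benjamini-Hochberg adjusted p-values (FDR). CPM is after TMM, except for the marker sums and *Xist*, which are scaled to the library total alone. Overlap of groups was judged on CPM unless TPM is named. Called genes had an FDR below 0.05 and differed by 20% or more (interaction, FDR only). Counts of both regions were summed per pool for the test over both. The region result is the mean of dorsal minus ventral over SH and EE. Standard errors were the log2 change divided by the root of F. Counting precision follows the depth of 22919364 to 28301861 fragments, with at least 121 for each member in each library.

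Named were all 10 members, list genes called in an EE test, the 2 largest rises and falls of each list between regions, and the 3 genes most like each member. The members and lists were chosen with earlier results of these data known. Of the genes, 45968 had a symbol. Promoters are those of RefSeq on GRCm38.p6.

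Dorsal and ventral samples of one number and housing came from the same mice. Their deviations from the group means had r = -0.186 to 0.350 over 9 pairs. SH and EE samples of one number also deviated together (r = 0.116 to 0.311 in 8 of 8 pairs), so the number was taken as a pairing, and blocked values are given where they change a call. The most alike sample of the other housing had the same number for 10 of 16 samples. The alternatives were DESeq2 1.42.0, limma 3.58.1, the likelihood ratio test, RLE size factors, other filters, robust dispersion, unstranded and expected counts, all 20 samples, no fold limit, single regions or housings, the block and each pool left out. The procedure was tested on simulated data. Figures used matplotlib 3.10.9.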

Additional observations from a re-analysis of the deposited data

Results flagged for a closer look

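A sample far from the others of its group was looked for in 112 groups of values (the 10 members, 10 marker sums and 8 list genes called in EE, in 4 groups), and 8 were found, where chance gives about 1 in 20. *Spry1* was at 9.12 CPM in ventral SH 2, and the other 3 samples had 11.4 to 11.6 CPM. Granule cell markers summed to 613 CPM in ventral SH 4, against 532 to 538 CPM in the others. In dorsal SH 1 the CA pyramidal and mossy cell markers summed to 131 CPM, against 147 CPM in each of the others, and choroid plexus markers to 206 CPM, against 25.1 to 49.6 CPM. *Arc* had 153 CPM in ventral EE 2, against 109 to 114 CPM. *Npas4* had 1.52 CPM in ventral SH 1, against 0.876 to 0.939 CPM. *Nr4a1* had 21.2 CPM in dorsal EE 4, against 16.5 to 17.4 CPM, and 18.1 CPM in ventral EE 2, against 14.4 to 15.3 CPM.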

How the results depend on the processing

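Of 1060 member values under other settings, 32 changed a call, 0 called values changed sign and 38 uncalled ones did. With no fold limit 8 members were called between regions, in place of 5. For EE in dorsal DG the count of 0 became 1 with the replicate block, DESeq2, the likelihood ratio test, all 20 samples or dorsal samples only, and 2 with no filter on low counts. For EE in ventral DG the count of 1 became 2 with DESeq2, the likelihood ratio test, all 20 samples, no filter or ventral samples only. The causes were not tested. With one pool left out, the counts were 4 to 5 between regions, 0 to 1 in dorsal DG, 1 to 1 in ventral DG, 0 to 2 over both regions and 0 to 0 for the interaction. Over all genes, pools left out gave 70 to 109 called for EE in dorsal DG (fewest without SH 4), 18 to 50 in ventral DG (18 without SH 4, 24 without SH 2 and 26 without EE 3) and 71 to 119 over both regions (71 without SH 1 and 76 without SH 4). The likelihood ratio test gave 181, 87 and 216, the replicate block 173, 67 and 218, DESeq2 75 in ventral DG and 177 over both, no filter 78 in ventral DG and 188 over both, and ventral samples only 25. With no fold limit 9949 genes differed between regions, in place of 5574. The interaction called 1 gene, 2 with the block and 0 with any pool left out. Other than that of *Dusp14* in dorsal DG, the block changed no call of a member. The lowest counts in a library were 142 for *Dusp1* and 121 for *Dusp5*, and the standard errors of their EE changes were 0.08 and 0.14 in each region.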
